A study of Rattus norvegicus with 30 samples.

Results

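The genes of muscle calcium release and uptake were followed across the plantaris tendons of 30 male Sprague Dawley rats, aged 3 months. The list names 10 genes, Ryr1, Cacna1s, Trdn, Jph1, Jph2, Casq1, Casq2, Sln, Pvalb and Atp2a1, listed for their known role with earlier results of these data known, and 9 of them had counts among the 13124 genes of the deposited table. Atp2a1 was not analysed here. The study asked whether GSK2894631A, an inhibitor of hematopoietic prostaglandin D synthase, alters the healing of a cut and sutured plantaris tendon. Control tendons (n = 3) came from rats with no tenotomy and no test compound. Repaired tendons were taken 7 days (7D) or 21 days (21D) after tenotomy and immediate repair in both hind limbs, from rats gavaged with the vehicle alone (0 mg/kg) or with the inhibitor at 2 or 6 mg/kg. The 7D groups held 5, 4 and 3 tendons at 0, 2 and 6 mg/kg, and each 21D group held 5. The Achilles tendon was left whole in these rats and shielded the repair from load. The tissue for RNA was cut distal to the junction with the muscle, to keep muscle out.

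In a muscle fibre, depolarization of the surface membrane is sensed by a voltage-gated calcium channel in the transverse tubule, and this channel opens the calcium release channel of the sarcoplasmic reticulum. Calcium leaves the reticulum, the sarcomere contracts, and an ATP-driven pump of the SERCA family returns the calcium to the store. Tendon itself is a tissue of fibroblasts and collagen with no such apparatus. Ryr1 (ENSRNOG00000020557) encodes the skeletal release channel, Cacna1s (ENSRNOG00000046231) the pore subunit of the voltage sensor, and Trdn (ENSRNOG00000012609) triadin, which anchors calsequestrin to the release channel. Jph1 (ENSRNOG00000006110) and Jph2 (ENSRNOG00000008170) encode junctophilins, which hold the tubule and the reticulum together. Casq1 (ENSRNOG00000006930) and Casq2 (ENSRNOG00000016243) encode the calsequestrins that store calcium in the reticulum, the first mainly in fast fibres and the second in cardiac and slow muscle. Sln (ENSRNOG00000009047) encodes sarcolipin, a small inhibitor of the SERCA pump, and Pvalb (ENSRNOG00000006471) parvalbumin, a soluble calcium buffer of fast fibres.

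Total counts ranged from 12405741 to 49909374 per tendon, and at these totals 3 counts corresponded to 0.0601 to 0.242 CPM, the count scaled to a fixed library size. The RNA of the tendons held very different amounts of muscle transcripts. The 21 measured sarcomere genes took 15.7% to 21.3% of all counts in control tendons, 0.143% to 1.02% at 7D 0 mg/kg, 0.00694% to 0.00941% at 7D 2 mg/kg and 0.00746% to 0.00919% at 7D 6 mg/kg. At 21D the range was 0.0547% to 6.46% at 0 mg/kg, 1.0% to 2.61% at 2 mg/kg and 0.275% to 7.88% at 6 mg/kg. At 21D, 3 tendons stood apart from their groups with low muscle RNA, namely 0 mg/kg replicate 2 (0.0547%) and 6 mg/kg replicates 3 and 5 (0.275% and 0.352%). All 6 tendon markers had counts, and their summed level was 8734 to 34920 CPM in control and 21540 to 53100 CPM in repaired tendons. Gene by gene, 1 of the 6 was higher and 3 were lower than control at 7D 0 mg/kg, at a median log2 fold change of -0.54. In whole tissue, fewer muscle fibres and less RNA per fibre cannot be told apart.

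Ryr1 was highest in control tendons, with 4711, 4090 and 2621 CPM scaled by TMM in replicates 2, 3 and 4. At 7D it fell to 141, 190, 62.8, 184 and 33.4 CPM in the 5 tendons at 0 mg/kg. At 2 mg/kg its level was 1.88, 1.18, 1.37 and 0.514 CPM. At 6 mg/kg the 3 tendons had 1.63, 1.36 and 1.06 CPM. The release channel transcript was thus low in all 12 repaired tendons at 7D, with no overlap with the controls, and the tendons at 2 and 6 mg/kg lay below every tendon at 0 mg/kg. The log2 fold change against control for 0 mg/kg equalled -4.96 (SE 0.928, adjusted p = 4.18e-05), that for 2 mg/kg -11.56 (SE 1.34, 6.13e-08) and that for 6 mg/kg -11.45 (SE 1.53, 5.65e-07). These come from the quasi-likelihood test of edgeR, with p adjusted by Benjamini-Hochberg over 12558 genes. Cacna1s moved with it, from 1238 ± 50.9 CPM (SD, n = 3) in control tendons to 29.1 ± 19.9 CPM (n = 5) at 7D 0 mg/kg. Only 2 to 14 Cacna1s counts were left per tendon at 2 mg/kg and 7 to 11 at 6 mg/kg. Trdn had 2486, 2605 and 3687 CPM in the control tendons and 87.1, 129, 21.4, 87.1 and 21.0 CPM at 7D 0 mg/kg. At 2 mg/kg Trdn was down to 3 to 5 counts per tendon, or 0.193 ± 0.0859 CPM (n = 4), and at 6 mg/kg to 5 to 15 counts. It had the largest fitted fall of the 9 genes at both doses, with log2 fold changes of -13.96 and -13.02 against control.

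**Figure D1:**
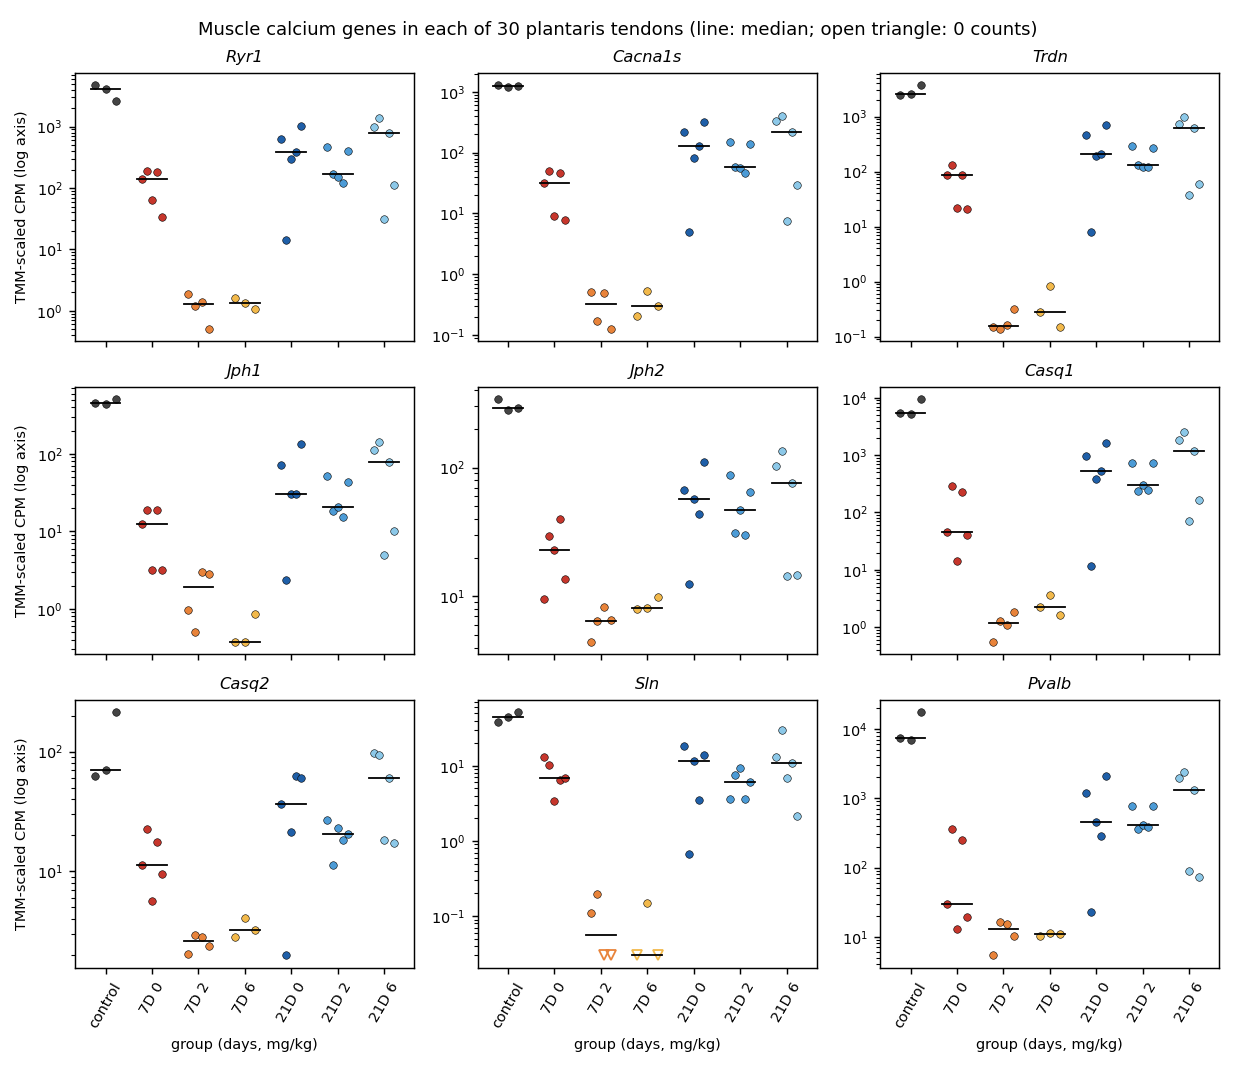
TMM-scaled CPM (log axis) of the 9 genes in each of the 30 tendons, by group on the horizontal axis (days after repair, dose in mg/kg), where a point is a tendon, a line is the group median and an open triangle is a tendon with 0 counts. Each gene is highest in control tendons and its median is lowest in a 7D 2 or 6 mg/kg group, and among the 21D 0 mg/kg tendons replicate 2 is the low point of each panel (7.99 CPM for Trdn).

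All 9 measured genes were lower than control in each 7D group by the same test, and these comparisons share the 3 control tendons. The median log2 fold change of the 9 was -5.38 at 0 mg/kg, where 35.6% of all genes tested were lower, -9.81 at 2 mg/kg, where 34% were lower, and -10.78 at 6 mg/kg, where 33.8% were lower. At 6 mg/kg the median is the fitted value of Sln, which had at most 2 counts there, and with Sln at its bound it was -9.93. The median over all 12558 genes was 0.05, 0.05 and 0.04 in the same comparisons. None of the 9 genes overlapped between control and 7D tendons, against 30.7%, 29.1% and 32.3% of all genes that lay wholly below control at 0, 2 and 6 mg/kg. With the log2 sarcomere share of each tendon as a covariate, 2 of the 9 were lower than control at 0 mg/kg (Jph2 and Pvalb), 1 at 2 mg/kg (Trdn) and 2 at 6 mg/kg (Trdn and Sln). In that fit 49.2%, 10.9% and 11.2% of all genes were called in either direction at 0, 2 and 6 mg/kg.

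The junctophilins fell to different depths. Jph1 had 453, 436 and 513 CPM in control tendons and 12.4, 18.7, 3.19, 18.6 and 3.20 CPM at 7D 0 mg/kg. At 2 mg/kg it had 0.958, 0.505, 3.01 and 2.83 CPM, and at 6 mg/kg 0.374, 0.379 and 0.852 CPM. Jph2 had 342, 282 and 291 CPM in control tendons and 9.58, 29.2, 22.8, 39.9 and 13.7 CPM at 7D 0 mg/kg. In the treated 7D tendons Jph2 stayed well above the floor, at 4.42, 6.42, 8.31 and 6.55 CPM at 2 mg/kg and 7.99, 8.10 and 9.82 CPM at 6 mg/kg, which rested on 102 to 427 counts per tendon. The lowest tendon at 0 mg/kg lay inside the 6 mg/kg range of Jph2, and Jph1 did not overlap between these groups. Against control, the log2 fold change at 2 mg/kg was -8.09 for Jph1 (SE 1.20, adjusted p = 2.21e-06) and -5.57 for Jph2 (0.724, 3.20e-07) by edgeR's quasi-likelihood test. Jph2 is also known from heart and smooth muscle, and of 8 smooth muscle markers 2 were higher and 2 lower than control at 7D 0 mg/kg, at a median log2 fold change of 0.56. Their summed level was 5240 to 8804 CPM in control, of which Des, a gene that striated muscle also uses, made up 4884 to 8449 CPM. The sum was 581 to 1322 CPM at 7D 0 mg/kg and 354 to 724 CPM in the treated 7D tendons. The part of smooth muscle cells in the Jph2 level was not tested.

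The calsequestrins were split in the same way. Casq1, the fast-fibre form, had 5453, 5135 and 9578 CPM in control tendons and 46.5, 285, 14.0, 228 and 39.9 CPM at 7D 0 mg/kg. Treated 7D tendons had 0.553 to 1.86 CPM at 2 mg/kg and 1.64 to 3.71 CPM at 6 mg/kg. Casq2 had 62.0, 70.9 and 213 CPM in control tendons, with replicate 4 far above the others. It had 11.3, 22.8, 5.60, 17.5 and 9.53 CPM at 7D 0 mg/kg. The treated 7D tendons had 2.03, 2.94, 2.84 and 2.38 CPM at 2 mg/kg and 2.83, 4.09 and 3.25 CPM at 6 mg/kg, on 37 to 151 counts. All 5 tendons at 0 mg/kg were above all 7 treated tendons in Casq2, and none reached the lowest control. At 7D 0 mg/kg the log2 fold change against control was -5.78 for Casq1 (SE 1.09, adjusted p = 4.53e-05) and -3.11 for Casq2 (0.656, 0.000168) by edgeR's quasi-likelihood test. In 21D 6 mg/kg tendons Casq2 was the gene of the 9 that did not pass, at 97.6, 93.6, 18.2, 60.3 and 17.2 CPM and a fold change of -1.005 on the log2 scale (SE 0.640, adjusted p = 0.172, edgeR's quasi-likelihood test).

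The stretches of 250 bases before the transcription start of the 2 calsequestrin genes are given because these paralogs moved by different amounts. They are RefSeq sequences of the GRCr8 rat assembly, Casq1 at chr13:87212711-87212960 on the minus strand and Casq2 at chr2:192214306-192214555 on the plus strand. Capitals mark an E-box CAGCTG in Casq1, a motif bound by muscle basic helix-loop-helix factors, and a match to the MEF2 consensus in Casq2, which starts at -149 from the start site.
Casq1: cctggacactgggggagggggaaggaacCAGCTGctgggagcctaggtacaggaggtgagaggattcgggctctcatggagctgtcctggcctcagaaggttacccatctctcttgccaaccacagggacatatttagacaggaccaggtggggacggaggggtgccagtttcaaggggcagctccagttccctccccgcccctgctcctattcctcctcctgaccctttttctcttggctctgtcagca
Casq2: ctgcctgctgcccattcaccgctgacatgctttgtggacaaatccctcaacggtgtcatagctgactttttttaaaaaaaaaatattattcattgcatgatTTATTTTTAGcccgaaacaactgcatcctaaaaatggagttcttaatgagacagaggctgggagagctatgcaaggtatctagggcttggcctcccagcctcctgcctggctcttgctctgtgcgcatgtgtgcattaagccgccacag
The sequence table held 7 of the 9 measured genes. Both strands were searched. CAGCTG was found in 2 of the 7 (Cacna1s and Casq1) and in 12% of 33469 promoters, and the MEF2 consensus in 1 of the 7 and in 2.96% of all. A match of this kind is a description of the letters.

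Sln had the smallest fall of the 9 genes at 7D 0 mg/kg and was near or at 0 counts under treatment. Control tendons had 38.4, 43.9 and 51.5 CPM of Sln, and the 7D 0 mg/kg tendons 13.3, 10.1, 3.41, 6.41 and 6.97 CPM. The 4 tendons at 2 mg/kg held 3, 7, 0 and 0 counts, and the 3 at 6 mg/kg held 0, 2 and 0. At 0 mg/kg the log2 fold change against control was -2.47 (SE 0.683, adjusted p = 0.00239, edgeR's quasi-likelihood test). With 3 counts per library as the floor, Sln was at least 357-fold lower at 7D 6 mg/kg than in control tendons and at least 64.3-fold lower than at 7D 0 mg/kg. The slow and cardiac pump Atp2a2 behaved otherwise, with 795 ± 470 CPM in the 3 control tendons. Its mean at 7D was 274 ± 22.1 CPM without the inhibitor, 258 ± 11.5 CPM under 2 mg/kg and 247 ± 27.1 CPM under 6 mg/kg (SD over 5, 4 and 3 tendons). Its log2 fold change between 2 and 0 mg/kg was -0.09 (SE 0.222). Atp2a3, the pump of blood and endothelial cells, had a log2 fold change of -0.13 against control at 7D 0 mg/kg (SE 0.301, adjusted p = 0.719, edgeR's quasi-likelihood test).

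Pvalb, the cytosolic buffer, spread most at 7D 0 mg/kg. The tendons had 7436, 6845 and 17460 CPM in control and 29.7, 364, 13.04, 249 and 19.5 CPM at 7D 0 mg/kg, so replicates 2 and 4 lay far above the other 3. At 2 mg/kg the values were 5.38, 16.1, 15.5 and 10.3 CPM, and at 6 mg/kg they were 10.4 to 11.2 CPM, on 146 to 575 counts. The lowest 0 mg/kg tendon (replicate 3) lay inside the 2 mg/kg range. Against control the log2 fold change at 7D 0 mg/kg was -6.29 (SE 1.19, adjusted p = 4.90e-05, edgeR's quasi-likelihood test), the largest fall of the 9 genes in that group. Replicates 2 and 4 were also the tendons with the highest sarcomere share of the group, 1.02% and 0.824% of counts.

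**Figure D2:**
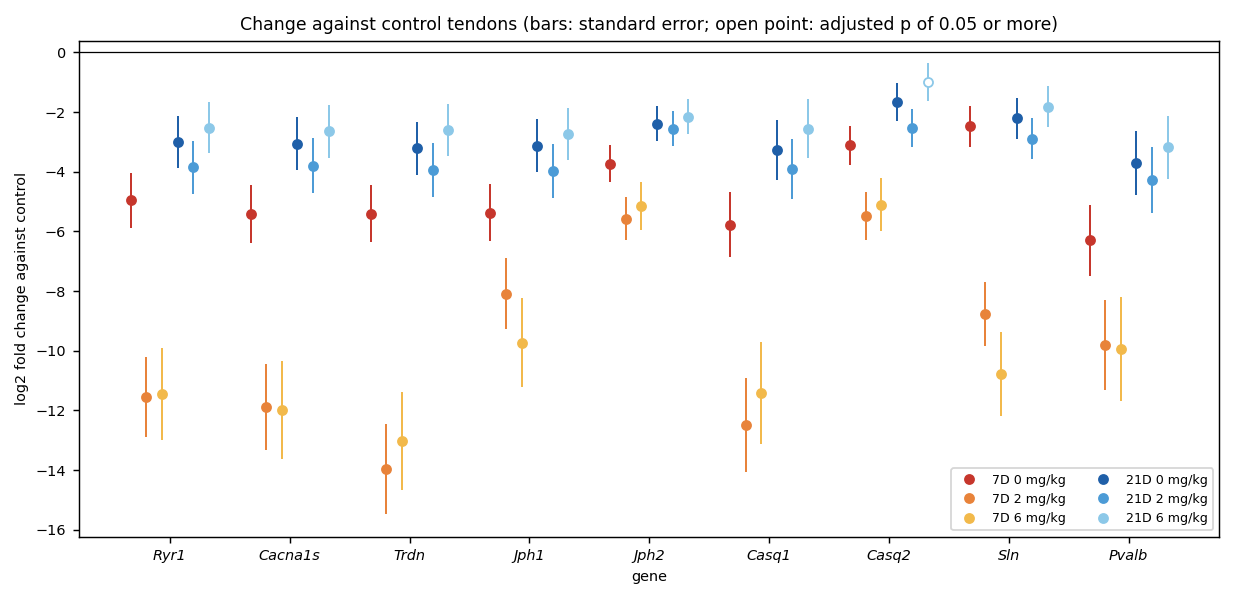
Log2 fold change of each of the 9 genes against control tendons in the 6 repaired groups, from edgeR's quasi-likelihood fit, with bars for the SE and an open point where the adjusted p was 0.05 or more. Every gene lies lowest under 2 or 6 mg/kg at 7D, and Jph2 and Casq2 fall less in them (-5.57 and -5.49 at 2 mg/kg) than Trdn (-13.96).

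Dose was compared at 7D, where 5 of the 9 genes were lower at 2 than at 0 mg/kg and 1.45% of all genes were. They were Ryr1, Cacna1s, Trdn, Casq1 and Sln, with log2 fold changes of -6.60, -6.46, -8.55, -6.71 and -6.29 and adjusted p from 0.00117 to 0.00374 by edgeR's quasi-likelihood test. Jph1 (-2.70), Jph2 (-1.85), Casq2 (-2.38) and Pvalb (-3.51) did not pass, with adjusted p from 0.0617 to 0.145 in the same test. DESeq2 called all 9 in this comparison and 7 in that of 6 against 0 mg/kg, with 5.65% and 1.54% of all genes called in it. At 6 against 0 mg/kg 4 of the 9 were lower, Ryr1, Cacna1s, Trdn and Sln, and 0.39% of all genes were. Leaving out any of the 3 tendons at 6 mg/kg took this count to 0, and 0% of all genes were called in those fits. The groups did not overlap in 8 of the 9 genes in each of these comparisons, with Pvalb the exception at 2 mg/kg and Jph2 at 6 mg/kg, and 3.88% and 5.44% of all genes lay wholly below the 0 mg/kg tendons. Between 6 and 2 mg/kg none of the 9 passed edgeR's quasi-likelihood test, DESeq2 or limma-trend, and 0 had an unadjusted p under 0.05 in edgeR. Of all genes, 0% passed in edgeR and 0.549% in DESeq2. Over the 3 doses together 5 of the 9 differed at 7D, and 2.05% of all genes did.

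The sarcomere share at 7D was lower at 2 and 6 mg/kg than at 0 mg/kg, as given above. The 5 tendons at 0 mg/kg did not overlap with the 7 treated tendons in this share. The 2 and 6 mg/kg tendons overlapped with each other. The 6 regenerating-muscle markers with counts summed to 642 to 822 CPM in control tendons. These tendons were uninjured, so the markers do not stand for regeneration alone. At 7D they summed to 9.74 to 86.1 CPM at 0 mg/kg and to 0.196 to 2.42 CPM at 2 and 6 mg/kg. All 5 tested markers of that list were lower than control at 7D 0 mg/kg, at a median log2 fold change of -3.83. With the log2 sarcomere share as a covariate, Trdn and Sln remained lower at 2 than at 0 mg/kg, with log2 differences of -2.94 (SE 0.349, adjusted p = 6.07e-06) and -3.38 (0.960, 0.0261) in edgeR's quasi-likelihood test. In the same fit Jph1 and Pvalb turned to higher values, by 2.56 (SE 0.475, adjusted p = 0.00107) and 3.16 (0.633, 0.00226). At 6 against 0 mg/kg the same fit gave Trdn -2.16, Sln -5.50 and Pvalb 2.92 on the log2 scale, each past the threshold. Of all genes, 10.4% were called in either direction at 2 against 0 mg/kg and 4.59% at 6 against 0 mg/kg in this fit. The covariate is itself made of muscle genes, and its values at 0 mg/kg do not overlap with those of the treated 7D tendons.

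At 21D the tendons were widely spread. Ryr1 had 626, 14.4, 293, 389 and 1032 CPM at 0 mg/kg, 471, 169, 151, 119 and 409 CPM at 2 mg/kg, and 993, 1376, 31.0, 795 and 112 CPM at 6 mg/kg. The lowest 0 mg/kg tendon, replicate 2, was below every 2 mg/kg tendon. Trdn had 462, 7.99, 195, 207 and 700 CPM at 0 mg/kg, with replicate 2 low again. Sln reached 18.4, 0.661, 11.7, 3.48 and 13.9 CPM at 0 mg/kg and 2.12 to 30.2 CPM at 6 mg/kg.

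Against control tendons, 9 of the 9 genes were still lower at 21D 0 mg/kg and at 2 mg/kg and 8 of the 9 at 6 mg/kg by edgeR's quasi-likelihood test, while 33.7%, 35.3% and 33.3% of all genes were lower. Their median log2 fold changes were -3.06, -3.85 and -2.55. The 21D 6 mg/kg count was 5 of the 9 without control replicate 4 and 5 of the 9 when only the 2 groups were fitted. Of all genes 56.5% and 50.8% were called in these fits, in either direction. The tendons did not overlap with control in 8, 9 and 8 genes at 0, 2 and 6 mg/kg, with Casq2 the exception at 0 and 6 mg/kg, against 27.8%, 30.3% and 27.8% of all genes. With the sarcomere share as a covariate 1, 5 and 1 of the 9 were lower, the single genes being Trdn at 0 mg/kg and Jph2 at 6 mg/kg. In that fit 51.5%, 56.9% and 52.1% of all genes were called in either direction at 0, 2 and 6 mg/kg.

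From 7D to 21D all 9 genes rose at 2 mg/kg, where 7.09% of all genes rose, and all 9 rose at 6 mg/kg, where 8.54% did, by edgeR's quasi-likelihood test. The rise at 2 mg/kg was 8.57 on the log2 scale for Casq1 (SE 1.35, adjusted p = 0.000243), 7.71 for Ryr1 (1.15, 0.000151) and 2.96 for Casq2 (0.697, 0.00574), the smallest of the 9. The 21D and 7D tendons did not overlap in any of the 9 genes at 2 or 6 mg/kg, and 11.3% and 10.8% of all genes lay wholly higher. At 0 mg/kg the 9 log2 differences ran from 0.27 for Sln to 2.58 for Pvalb, and none passed edgeR's quasi-likelihood test, with 8 of the 9 at an unadjusted p under 0.05, 0 passing in limma-trend and 5 in DESeq2. In that comparison 2.88% of all genes rose by edgeR with all tendons fitted. In either direction limma-trend called 3.94% of all genes and DESeq2 11.9%. Without 21D 0 mg/kg replicate 2, 8 of the 9 passed in edgeR, and 11.2% of all genes were called in either direction. With the sarcomere share as a covariate, 3 of the 9 differed at 2 mg/kg, Trdn higher and Jph1 and Pvalb lower at 21D, and 1 at 6 mg/kg, Trdn higher. Of all genes 13.7% differed at 2 mg/kg and 2.09% at 6 mg/kg in that fit.

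Across the 3 doses at 21D 0 of the 9 genes differed by edgeR's quasi-likelihood test (adjusted p 0.452 to 0.895), 1 had an unadjusted p under 0.05, and neither DESeq2 nor limma-trend called any of them. Of all genes, 0% passed in edgeR and 1.1% in DESeq2. The change with dose differed between 7D and 21D in 5 of the 9 genes by the interaction term, and in 0.39% of all genes. The adjusted p was 0.0145 for Ryr1, 0.0263 for Cacna1s, 0.0104 for Trdn, 0.0454 for Casq1 and 0.0104 for Sln (edgeR's quasi-likelihood test), and 0.380 to 0.692 for Jph1, Jph2, Casq2 and Pvalb. The count was 2 without 21D 0 mg/kg replicate 4, where 0.127% of all genes were called.

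Levels were next set against the sarcomere genes of the same tendon, as counts per 1000 sarcomere counts. On this scale Ryr1, Cacna1s and Trdn overlapped between control and each of the 7D 0 mg/kg and 21D groups. Trdn at 7D 2 and 6 mg/kg lay below all controls, at 1.88 to 3.55 and 2.16 to 9.65. These Trdn values rest on 3 to 15 counts per tendon. Jph1 lay above all controls there, at 7.79 to 39.0 and 4.39 to 12.1 against 1.44 to 2.18 in control. Ryr1 had 21.9, 20.5 and 7.36 per 1000 in control tendons, 35.1, 19.8, 46.9, 24.4 and 19.2 at 7D 0 mg/kg, and 11.4 to 33.8 over the 15 tendons at 21D. Trdn had 11.6, 13.04 and 10.4 in control tendons and 21.6, 13.5, 16.0, 11.6 and 12.1 at 7D 0 mg/kg. Cacna1s had 3.53 to 5.94 in control tendons and 4.56 to 7.99 at 7D 0 mg/kg. For Ryr1, Cacna1s, Trdn, Jph1 and Casq1 no difference from control passed edgeR's quasi-likelihood test at 7D 0 mg/kg or in any 21D group with library sizes set to the sarcomere counts. The SE for Ryr1 at 7D 0 mg/kg was 1.23 on the log2 scale, so differences of that size were not detectable, and 96.7% of all genes passed. Not passing therefore does not show that a gene was level with control. In the ordinary linear model given below, the SE there was 0.413 for Ryr1 and 0.303 for Trdn. Ryr1 alone of these genes passed in it at 7D 0 mg/kg.

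Casq2 and Sln were the genes that passed this test, at 7D 0 mg/kg and 21D 6 mg/kg. Casq2 had 0.288, 0.355 and 0.599 per 1000 in control tendons and 2.80, 2.37, 4.17, 2.33 and 5.47 at 7D 0 mg/kg. At 21D it had 0.869 to 3.82 at 0 mg/kg, 0.838 to 2.34 at 2 mg/kg and 1.13 to 6.71 at 6 mg/kg, so all 20 of these repaired tendons were above all 3 controls. At 7D 0 mg/kg 97.5% of all genes lay wholly above control on this scale, and at 21D 93.7%, 95.7% and 90.5% did. Sln had 0.179, 0.220 and 0.145 per 1000 in control tendons and 3.29, 1.05, 2.55, 0.851 and 4.01 at 7D 0 mg/kg. At 7D 0 mg/kg 2 of the 9 were called, both higher, with log2 differences of 3.05 for Casq2 (SE 1.34, adjusted p = 0.0246) and 3.70 for Sln (1.11, 0.00129) by edgeR's quasi-likelihood test, and 96.6% of all genes were higher on this scale. Sln at 21D 6 mg/kg had 0.206, 0.364, 2.55, 0.254 and 0.644 per 1000 and overlapped with control. In that group the same 2 genes passed the same test, at 2.95 (1.33, 0.0304) and 2.14 (1.02, 0.0401), with 93.5% of all genes higher. That count of 2 became 0 without control replicate 2, 3 or 4, without 21D 6 mg/kg replicate 3, or when only the 2 groups were fitted, and 1 without 21D 6 mg/kg replicate 5. In these fits 85.9% to 90% of all genes were called. The count at 7D 0 mg/kg became 1 without control replicate 2 or 3, where 95.4% and 95.3% of all genes were called. None of the 9 passed at 21D 0 or 2 mg/kg in this fit, where 96.3% and 84.6% of all genes did, 0 and 0 had an unadjusted p under 0.05, and DESeq2 called 2 and 1. Of all genes DESeq2 called 86.2% and 81.8%.

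**Figure D3:**
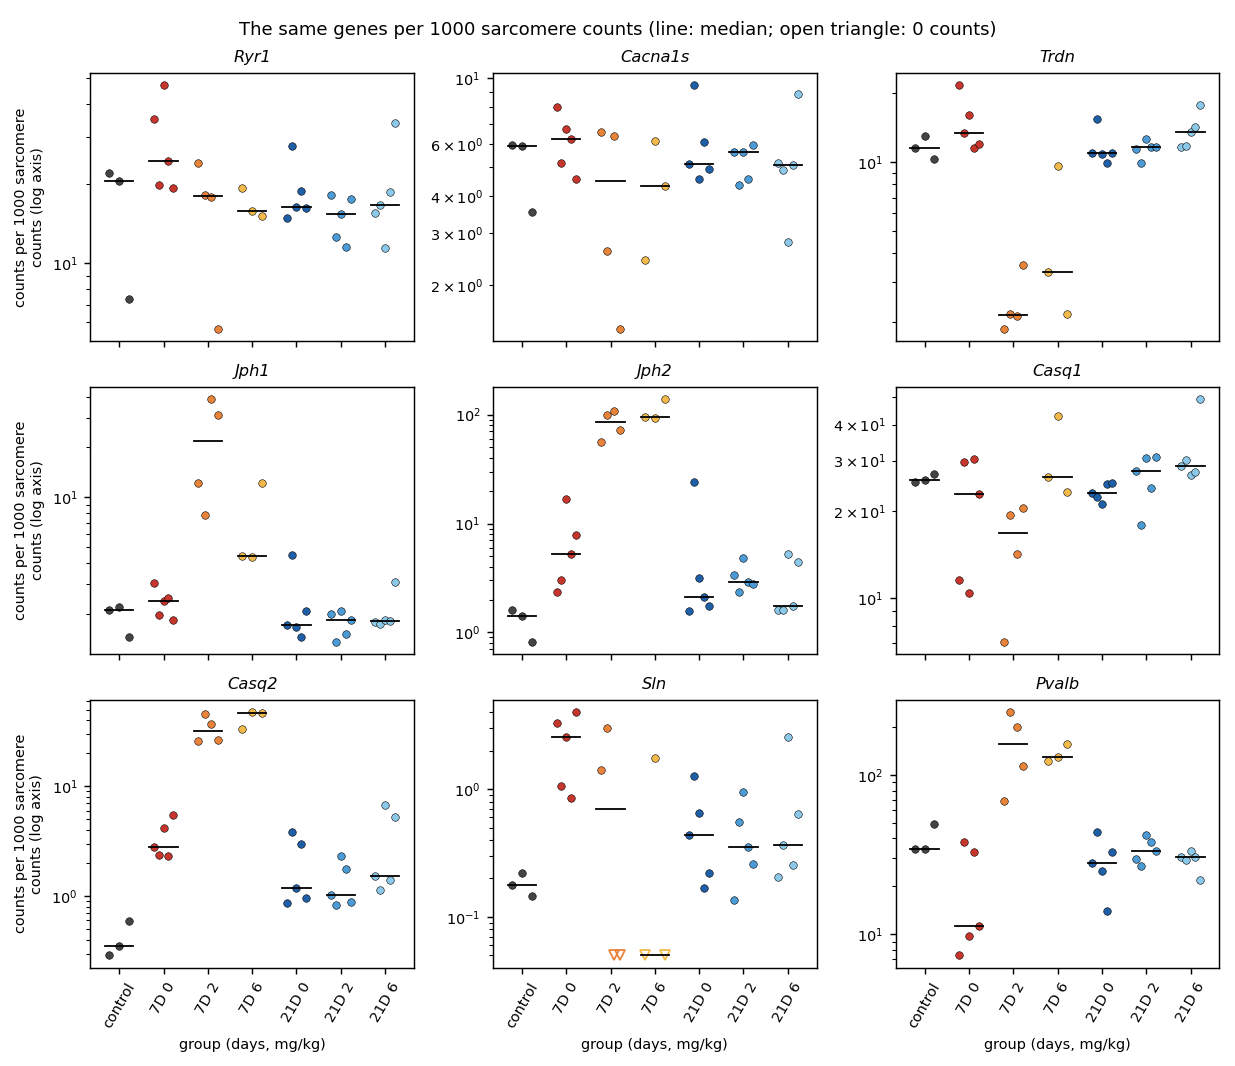
Counts of each gene per 1000 sarcomere counts of the same tendon (log axis) in the 30 tendons, by group, where lines are medians and open triangles are tendons with 0 counts. Casq2 in the 7D 0 mg/kg and 21D tendons lies above the 3 controls (0.288 to 0.599), and the 7D 2 and 6 mg/kg points rest on 1140 to 4523 sarcomere counts per tendon.

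An ordinary linear model of the log2 ratio, whose spread is that of each gene alone, was added after seeing the data. In it Casq2 was 8.21-fold higher per sarcomere count at 7D 0 mg/kg than in control, Sln 11.1-fold, Jph2 4.51-fold and Ryr1 1.83-fold, and Pvalb was at 0.410 of control, each with a Benjamini-Hochberg adjusted p under 0.05 in the model over all 12558 genes, 97.8% of which passed. At 21D Casq2 passed at each dose, at 4.12-fold, 3.19-fold and 6.17-fold for 0, 2 and 6 mg/kg (adjusted p 0.00393, 0.0102 and 0.00397 in this model), and Jph2 at 0 mg/kg, at 2.76-fold, where 93.8%, 90.5% and 90% of all genes passed. Pvalb per 1000 sarcomere counts was 34.6, 34.3 and 49.1 in control tendons and 7.37, 37.9, 9.73, 33.1 and 11.2 at 7D 0 mg/kg, so replicates 1, 3 and 5 were low and replicates 2 and 4 were level with control.

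Ratios between genes of the same tendon set members against each other without any library scale. Casq2 made up 1.12%, 1.36% and 2.18% of the Casq1 and Casq2 counts in control tendons. In 7D 0 mg/kg tendons the share was 19.5%, 7.41%, 28.6%, 7.13% and 19.3%. It was 56.1% to 78.6% at 7D 2 mg/kg and 52.4% to 66.5% at 6 mg/kg, where few Casq1 counts were left. At 21D it ran from 2.77% to 20.1%, so no repaired tendon reached down to the control range. Jph2 made up 36.2% to 43.0% of the junctophilin counts in control tendons, 43.7% to 87.7% at 7D 0 mg/kg, 69.9% to 92.7% and 92.0% to 95.5% at 2 and 6 mg/kg, and 45.6% to 84.2% at 21D. The 95% Clopper-Pearson interval of the Casq2 share, which covers counting error only, was 1.06% to 1.19% in control replicate 2. It was far wider in the treated 7D tendons, at 43.3% to 68.3% in 2 mg/kg replicate 5 and 42.4% to 62.4% in 6 mg/kg replicate 4. For the Jph2 share the interval was 42.25% to 43.76% in control replicate 2. It was 40.2% to 47.2% in 7D 0 mg/kg replicate 1, so the Jph2 intervals of these tendons overlapped.

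**Figure D4:**
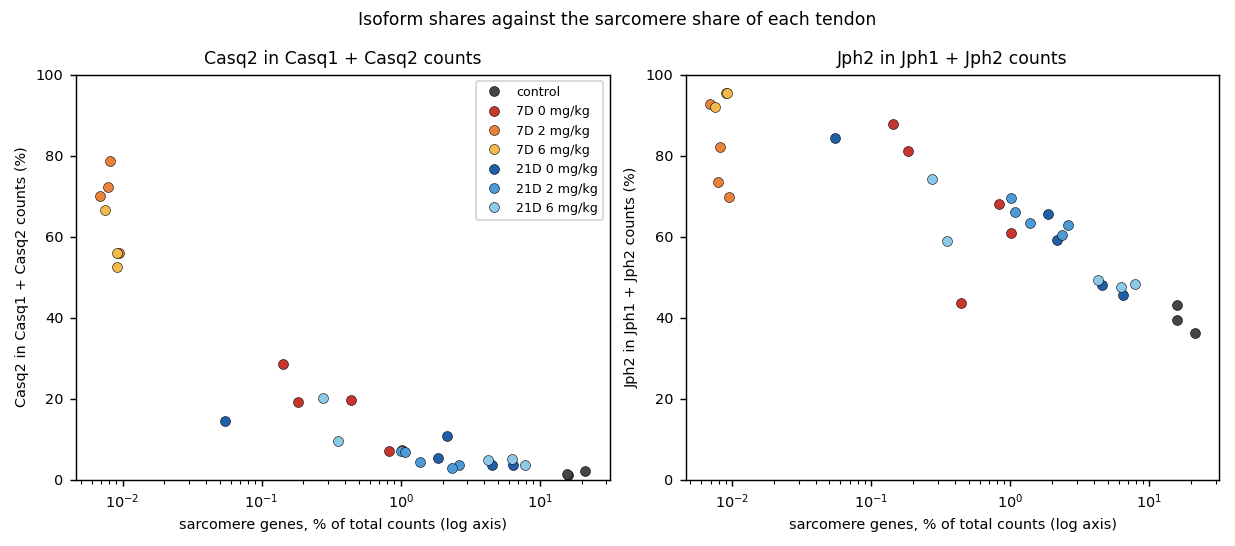
Share of Casq2 in Casq1 plus Casq2 counts (left) and of Jph2 in Jph1 plus Jph2 counts (right), in percent, against the percent of all counts on sarcomere genes (log axis), where each point is a tendon coloured by group. Both shares are lowest in the 3 control tendons (1.12% to 2.18% and 36.2% to 43.0%), with 7D 0 mg/kg replicate 1 close to them for Jph2 (43.7%). The Casq2 share is highest in the 7D 2 and 6 mg/kg tendons, which have the least sarcomere RNA.

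Other pairs were set against each other in the same way. The number of Ryr1 counts per Cacna1s count was 3.69, 3.46 and 2.09 in control tendons and 3.83 to 6.97 at 7D 0 mg/kg, so all tendons of that group lay above all controls. It was 2.54 to 4.11 over the 21D tendons. Casq1 per Trdn count was 1.97 to 2.60 in control tendons and 0.533, 2.20, 0.653, 2.62 and 1.90 at 7D 0 mg/kg, so replicates 1 and 3 were low. Pvalb per Trdn count was 2.63 to 4.74 in control tendons and 0.341, 2.82, 0.608, 2.86 and 0.930 at 7D 0 mg/kg, with replicates 1, 3 and 5 low. In the 7 treated 7D tendons both ratios lay above all controls, at 3.75 to 10.8 for Casq1 and 13.5 to 115 for Pvalb, on 3 to 15 Trdn counts per tendon. At 21D Pvalb per Trdn count was 1.24 to 3.33. Sln per 1000 Casq1 counts was 5.37 to 8.55 in control tendons and 28.1 to 285 at 7D 0 mg/kg.

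Most partners of these genes were lower as well. Of 19 listed partner genes of the voltage sensor, the triad and the pump, 17 were tested and 16 were lower than control at 7D 0 mg/kg, at a median log2 fold change of -5.14. The partners were chosen with earlier results of these data known, and 35.6% of all genes were lower in that comparison. The largest falls were those of Stac3, an adaptor of the voltage sensor, Hrc, a calcium-binding protein of the reticulum lumen, and Srl, sarcalumenin, at -5.75, -5.63 and -5.57 on the log2 scale. Fkbp1b, a subunit that stabilises release channels, was the partner that did not pass and is named after its values were seen. It had a log2 fold change of -0.73 (SE 0.350, adjusted p = 0.0658, edgeR's quasi-likelihood test). Between 2 and 0 mg/kg at 7D 7 of the 17 partners were lower and none was higher, where 1.45% of all genes were lower, and at 6 against 0 mg/kg 3 were lower, where 0.39% of all genes were. Mrln was not analysed here.

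Of 40 listed calcium genes used by many cell types, 35 were tested, and at 7D 0 mg/kg 13 were higher and 14 lower than control, at a median log2 fold change of -0.13. These counts are near those of the whole table, in which 35.6% of genes were lower. The 3 largest changes were falls, in Atp2b3, a plasma membrane calcium pump (-5.19), Slc8a3, a sodium-calcium exchanger (-5.13), and Ryr2, the cardiac release channel (-4.17). Ryr3, the third release channel, fell by 3.04 on the log2 scale from 12.4 CPM in control to 1.505 CPM. Of the inositol trisphosphate receptors, which release calcium in cells outside striated muscle, Itpr3 rose from 30.01 to 83.4 CPM, with a log2 fold change of 1.47 (SE 0.269, adjusted p = 3.18e-05, edgeR's quasi-likelihood test). Itpr1 was at -0.37 and Itpr2 at 0.43, and neither passed (adjusted p = 0.0733 and 0.0581 in the same test). Jph3 and Jph4 were not analysed here.

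Over the 30 tendons the log2 CPM of each of the 9 genes followed the log2 sarcomere share, with Pearson r from 0.934 for Jph2 to 0.993 for Cacna1s. These points share libraries and groups, so the r values are a description. Among pairs of the 9 genes r ran from 0.824 for Jph2 and Sln to 0.996 for Ryr1 and Cacna1s. The 10 genes whose log2 CPM was most like the mean of the 9 over the 30 tendons were Srl (r = 0.996), Ppp1r3a, Tnni2, Actn3, Hhatl, Tnnc2, Txlnb, Mybpc1, Fbxo40 and Rpl3l (0.992). The genes most like Casq2 were Tceal5, Sh3bgr and Tceal7 (r = 0.970, 0.964 and 0.962), and those most like Jph2 were Tpm1, Tmem233 and Speg (0.976, 0.973 and 0.972), none of which is on the list of 10.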

How the data were processed

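RNA sequencing counts of 30 rat plantaris tendons were used. The authors trimmed the reads, mapped them with STAR to the rn6 genome and deposited raw counts of reads in Ensembl exons per gene, after leaving out samples on read quality. A further deposited table of the authors' own edgeR comparisons (fold changes and p-values) was not used. Groups come from the time and dose in the labels.

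A gene was kept when its group mean reached 3 CPM in 1 group or more (12558 of 13124, 566 removed), and all 9 measured members passed. edgeR 4.0.16 in R 4.3.3 was run with TMM factors and quasi-likelihood tests in a model of 7 group means over all 30 tendons. Adjusted p is by Benjamini-Hochberg over all genes kept, and a gene was called at an adjusted p under 0.05. Factors were 0.599 to 0.788 in control and 0.950 to 1.10 in repaired tendons. Each label names a separate tendon. For levels against muscle RNA, library sizes were replaced by the summed counts of 21 sarcomere genes. The model was tested on simulated data with few genes changed and no planned difference in muscle RNA between groups. That test does not cover shifts in RNA make-up or the sarcomere scale.

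The members and gene lists were chosen with earlier results of these data known. Named genes were the members, their isoform partners, the 3 partners and 3 broad calcium genes with the largest change among those called at 7D 0 mg/kg, and the genes most like the members by Pearson r. Alternatives were library size only, RLE factors, no filter or a 10 CPM filter, a replicate block, fits of the compared groups alone, the log2 sarcomere share as a covariate, DESeq2 1.42.0, limma-trend (limma 3.58.1), a 1.5-fold threshold, other sarcomere scales, an ordinary linear model and leaving out each tendon in turn. No pair of tendons in a group was nearer than a chi-square of 29.6 per gene, so none was taken as a duplicate. Intervals and floors cover counting error only, because reads lacked molecular identifiers and so may repeat a molecule. Strand use in counting is not given in the sources used here, so overlapping antisense transcripts cannot be told apart.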

Additional observations from a re-analysis of the deposited data

Results flagged for a closer look

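Trdn in 21D 0 mg/kg replicate 2 was at 7.99 CPM, against 195 to 700 CPM in the other 4 tendons of its group, a gap large for the range of 5 tendons. That tendon had 0.0547% of its counts on sarcomere genes, the lowest share of the 21D tendons. Trdn in 7D 2 mg/kg replicate 5 was at 0.321 CPM, against 0.140 to 0.164 CPM in the other 3, and these values stand for 3 to 5 counts per tendon. In all 45 sets of 4 or 5 tendons were examined in this way, and chance picks out about 1 in 20.

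The change with dose differed between 7D and 21D, by the interaction term of edgeR's quasi-likelihood fit with Benjamini-Hochberg adjustment, in Ryr1 (adjusted p = 0.0145), Cacna1s (0.0263), Trdn (0.0104), Casq1 (0.0454) and Sln (0.0104). All 5 were lower under 2 mg/kg than without inhibitor at 7D, and none passed the test over doses at 21D.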

How the results depend on the processing

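Members called of the 9 are counts at an adjusted p under 0.05. Library size alone, RLE factors, either expression filter and a 1.5-fold threshold moved no count of members by over 1.5 times. When only the groups compared were fitted, the count became 5 at 21D 6 mg/kg against control and 8 over the doses at 7D, and per sarcomere count 3 at 21D 2 mg/kg and 0 at 21D 6 mg/kg. The shares of all genes called were, in the same order, 50.8%, 2.64%, 96% and 89.9%. DESeq2 called 9 members at 7D 2 against 0 mg/kg, 7 at 6 against 0, 8 over the doses at 7D and 5 at 21D against 7D at 0 mg/kg, and per sarcomere count 2 at 21D 0 mg/kg and 1 at 21D 2 mg/kg. Of all genes it called, in the same order, 5.65%, 1.54%, 4.55% and 11.9%, and per sarcomere count 86.2% and 81.8%. limma-trend called 3 for the interaction, and 0.334% of all genes. Leaving actin and the myosin heavy chains out of the scale gave 1 at 21D 6 mg/kg per sarcomere count, where 92.8% of all genes were called. The ordinary linear model, added after seeing the data, gave 5 at 7D 0 mg/kg and 2, 1 and 1 at 21D 0, 2 and 6 mg/kg. In that model 97.8%, 93.8%, 90.5% and 90% of all genes were called in the same order.

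Tendons were not paired by replicate number. Deviations of same-numbered tendons had a median r of 0.00685 (-0.701 to 0.681). Those of differently numbered tendons had a median r of 0.00878 (-0.673 to 0.779). With the replicate block 3 members were called for the interaction and 1 per sarcomere count at 21D 6 mg/kg, and no other count moved by over 1.5 times. Of all genes 0.223% and 93.3% were called in these fits. Leaving out each tendon gave 8 to 9 at 21D 0 mg/kg against control and 5 to 8 at 6 mg/kg (5 without control replicate 4), 0 to 5 at 7D 6 against 0 mg/kg, 5 to 6 over the doses at 7D, 0 to 8 at 21D against 7D at 0 mg/kg and 2 to 5 for the interaction. Where a 7D 6 mg/kg tendon was left out, 0% of all genes were called at 7D 6 against 0 mg/kg. Of all genes 56.5% were called at 21D 6 mg/kg against control without control replicate 4. Per sarcomere count it gave 1 to 2 at 7D 0 mg/kg (1 without control replicate 2 or 3, with 95.4% and 95.3% of all genes called) and 0 to 2 at 21D 6 mg/kg. The leave-one-out fits that gave 0 at 21D 6 mg/kg called 85.9% to 88.4% of all genes. The other counts did not move with a tendon left out.

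With the sarcomere share as a covariate 2, 1 and 2 members were called against control at 7D 0, 2 and 6 mg/kg, 1, 5 and 1 at 21D, and 3 and 1 at 21D against 7D at 2 and 6 mg/kg. Against control that fit called 49.2%, 10.9% and 11.2% of all genes at 7D and 51.5%, 56.9% and 52.1% at 21D. At 21D against 7D it called 13.7% and 2.09% at 2 and 6 mg/kg. By construction the covariate takes out the muscle RNA that the members share. Log2 changes turned sign in this fit. Against control they were 0.12 for Casq2 and 0.27 for Sln at 7D 0 mg/kg, 1.65 for Jph1, 1.30 for Casq2 and 1.64 for Pvalb at 2 mg/kg, 0.33 for Jph2, 1.62 for Casq2 and 1.40 for Pvalb at 6 mg/kg, and 0.0535 and 0.68 for Casq2 at 21D 0 and 6 mg/kg. At 7D 2 against 0 mg/kg they were 2.56 for Jph1, 0.98 for Jph2, 1.18 for Casq2 and 3.16 for Pvalb, and at 6 against 0 mg/kg 0.92 for Jph1, 1.38 for Jph2, 0.71 for Casq1, 1.497 for Casq2 and 2.92 for Pvalb. At 21D against 7D they were -0.40 for Ryr1, -0.22 for Trdn, -0.0688 for Casq2 and -1.14 for Sln at 0 mg/kg, -2.69 for Jph1, -0.83 for Jph2, -1.65 for Casq2 and -2.35 for Pvalb at 2 mg/kg, and -0.78 for Jph1, -1.38 for Jph2, -0.0547 for Casq1, -0.94 for Casq2 and -2.31 for Pvalb at 6 mg/kg. Sln at 21D against 7D at 0 mg/kg was -0.29 by limma-trend and ran from -0.11 (without 21D 0 mg/kg replicate 1) to 0.57 (without replicate 2) with a tendon left out. At the depth of the 7D 2 and 6 mg/kg tendons Sln and Trdn rest on 0 to 15 counts.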
